A study of Mus musculus with 18 samples.

Results

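TGF-beta, activin and BMP ligands signal through paired type I and type II receptors, which phosphorylate the receptor-regulated SMAD proteins in the cytoplasm. Phosphorylated SMADs join the common partner SMAD4, enter the nucleus and bind target genes, among them the inhibitory SMADs and the inhibitor of DNA binding (ID) genes, whose products hold E proteins off DNA. TGIF1 and SKIL are nuclear corepressors that sit on SMAD complexes and dampen their output. In sensory neurons of the dorsal root ganglion (DRG), SMAD1 is known as a factor linked to axon growth after injury.

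The data described here are the levels of 10 genes of this pathway, Smad1, Smad3, Smad6, Smad7, Tgif1, Skil, Id1, Id2, Id3 and Tgfbr1, which were chosen by name from the 47643 genes counted. They were followed after axons were cut in embryonic DRG spot cultures (eDRG spot) of CD-1 mice at e13.5. The cultures were grown with the mitotic inhibitor 5-fluorodeoxyuridine (FDU), which removes dividing cells, and controls were collected uninjured at DIV7 (day 7 in vitro). In the injured cultures the axons were cut by blade, and RNA was taken after 1, 3, 8, 16 or 24 h (hours post injury, HPI), and each of the 6 groups held 3 libraries, 18 in all. The labels place the collection of the injured cultures at DIV7 and the paper places the cut there, so by the paper the late cultures were up to a day older than the controls, and time in culture and injury then cannot be told apart. No source says whether the replicates of a group were separate cultures or embryos, so the p-values given here measure the spread between these libraries, which may be technical.

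The values are reads counted on genes, scaled to each library's total on genes and called CPM, and given as RPKM (CPM per kilobase of exon) where genes are compared with each other. Depth ran from 9478891 to 23082327 counts on genes, so that 3 counts, taken as the limit of detection, came to between 0.130 and 0.316 CPM. This limit covers counting error only. Replicate numbers marked a batch: libraries of the same number deviated together from their group means, with a mean correlation of 0.619 over 45 pairs, and all tests carried a term for it. The 6 neuron markers summed to between 7232 and 9090 CPM in each library, against at most 15.9 CPM for 10 satellite glia and Schwann cell markers, 19.5 CPM for 6 fibroblast markers, 7.57 CPM for 6 myeloid markers and 2.21 CPM for 6 endothelial markers. One library stood apart in residual ribosomal RNA, replicate 1 of 16 HPI. There the list of 5 genes used as a measure of such RNA summed to 21410 CPM, against at most 12560 CPM in any other library. Gm42418 and AY036118 had 0 counts in every library, so the sum rests on Gm26917, Gm23935 and Lars2.

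The sequences just upstream of 3 genes are shown, because these 3 behaved differently after injury: Tgif1 had the largest change, Smad1 a small one, and Tgfbr1 no detectable one. They come from RefSeq promoter windows of GRCm38.p6 (250 bases before to 50 bases after a start) and are read 5′ to 3′ on the strand of the gene. Windows of 7 of the 10 genes were searched for motifs, and no window of Smad7, Skil or Id1 was. The Tgif1 sequence covers chr17:70853547-70853782 (minus strand), the Smad1 sequence chr8:79399519-79399678 (minus strand) and the Tgfbr1 sequence chr4:47352972-47353221 (plus strand). Capitals mark the letters CAGAC, a SMAD binding site, in Tgif1 and GGCGCC, the core of a BMP-responsive element, in Tgfbr1.
Tgif1: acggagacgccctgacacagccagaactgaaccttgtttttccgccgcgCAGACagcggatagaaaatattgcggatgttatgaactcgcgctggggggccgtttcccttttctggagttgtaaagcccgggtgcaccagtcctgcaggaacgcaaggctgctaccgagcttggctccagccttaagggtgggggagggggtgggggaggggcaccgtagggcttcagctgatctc
Smad1: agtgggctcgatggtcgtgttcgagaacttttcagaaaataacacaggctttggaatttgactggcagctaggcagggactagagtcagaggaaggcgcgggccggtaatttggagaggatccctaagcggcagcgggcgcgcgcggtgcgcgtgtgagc
Tgfbr1: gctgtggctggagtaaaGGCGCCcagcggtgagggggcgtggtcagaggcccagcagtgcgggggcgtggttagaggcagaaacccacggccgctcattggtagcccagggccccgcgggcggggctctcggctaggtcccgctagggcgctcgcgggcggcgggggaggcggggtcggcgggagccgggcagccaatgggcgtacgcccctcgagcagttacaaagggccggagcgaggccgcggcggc

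Both strands of the whole windows were searched for 6 motifs, and matches to different motifs may overlap. The match in Tgif1 lay 187 bases upstream of the start of the gene, and that in Tgfbr1 lay 233 bases upstream. Tgif1 has 5 windows for its several starts, and 3 of these held CAGAC, while 2 held TGACAG, the site read by TGIF proteins. The window of Id3 held CAGAC at 2 places, that of Id2 held GGCGCC, and that of Smad6 held TGACAG. Tgfbr1 has a second window, further inside the gene, and it held CAGAC too, at 1 place. Those of Smad1 and Smad3 held none of the 6 motifs, which says only that these letters are not in these windows. Short motifs are common: CAGAC was found in 49.6% of the 32851 windows of all genes, GGCGCC in 11.9%, TGACAG in 19.2%, the E-box CANNTG in 72.3%, the AP-1 site TGANTCA in 7.81% and the CRE core GACGTC in 4.4%. No window of the 7 genes searched held TGANTCA or GACGTC, and Smad7, Skil and Id1 were not searched.

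In the uninjured cultures, Smad1 was the most abundant of the 10 genes, with 13.3 ± 1.67 RPKM (SD, n = 3). Id2 had 4.77 ± 3.08 RPKM and Tgfbr1 had 3.49 ± 0.38 RPKM, and these neighbours did not differ beyond their spread. Skil had 1.51 ± 0.174 RPKM. Id1, with 1.02 ± 0.558 RPKM, could not be told from Skil by this spread. Smad7 had 0.342 ± 0.182 RPKM and Smad3 had 0.321 ± 0.0853 RPKM, again with overlapping spreads. Tgif1 was low, at 0.106 ± 0.101 RPKM. Id3, at 0.0642 RPKM, and Smad6, at 0.0052 RPKM, lay at the bottom of the order, both at or near the limit of detection.

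The test took in each gene that passed 1 CPM in 3 or more libraries, 13771 of all genes and 8 of the 10. Smad6 and Id3 were not tested. A change was called where the quasi-likelihood test of edgeR, adjusted by Benjamini-Hochberg over every gene tested, gave an adjusted p under 0.05. None of the 8 tested genes was called at 1 HPI, where 0.276% of all tested genes were called, and none at 3 HPI, where the share was 0.189%. Without adjustment, 2 of the 8 had p under 0.05 in edgeR at each of these times, Smad3 and Skil at 1 HPI and Skil and Id2 at 3 HPI. At 8 HPI, Skil and Smad1 rose, 2 of 8, beside 7.68% of all tested genes called and 3.78% called higher. At 16 HPI, Tgif1, Smad7, Skil and Smad1 rose, 4 of 8, beside 22.2% called and 10.7% called higher. Tgif1 and Smad7 rose over 2-fold, as did 1.18% of all tested genes. The 10 genes were chosen with earlier results of these data known, so these shares do not test them as a group against all genes. At 24 HPI only Tgif1 was called among the 8, higher than control, beside 15% called and 5.99% called higher, and it was over 2-fold, as were 0.639% of all tested genes. None of the 8 was called lower than control at any time, and the comparisons share the 3 control libraries. The median log2 fold change of the 8 genes was 0.17, 0.13, 0.29, 0.25 and 0.11 at 1, 3, 8, 16 and 24 HPI, beside 0.00 for all tested genes at each of these times. Over all 6 groups together, 6 of the 8 genes differed by edgeR's test, beside 30% of all tested genes, and Id2 and Tgfbr1 did not pass.

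**Figure D1:**
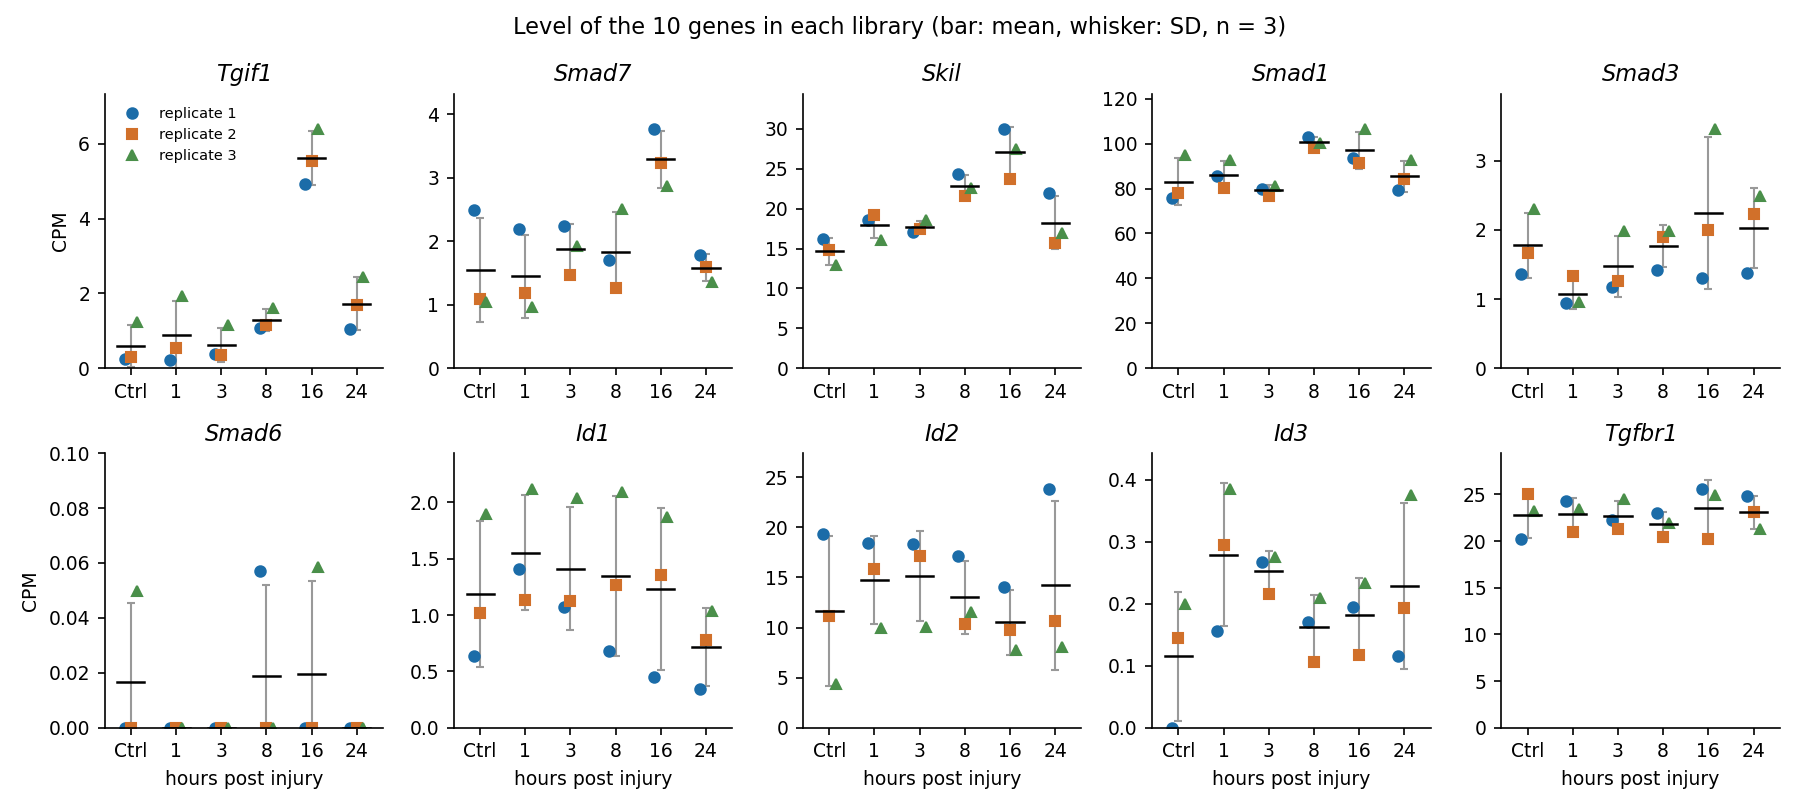
Level of each of the 10 genes in CPM (y axis, from 0, scaled per gene) in every library, by group (x axis: control, then hours post injury). Points are libraries with the replicate number as shape, bars are means and whiskers SD (n = 3). The 3 libraries of 16 HPI lie above all libraries of the other groups for Tgif1, between 4.93 and 6.38 CPM, and for Smad7, between 2.87 and 3.77 CPM.

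Tgfbr1 (ENSMUSG00000007613.15, chr4:47353222-47414931 of GRCm38, plus strand) encodes the type I receptor for TGF-beta, the kinase that phosphorylates SMAD2 and SMAD3. Its level was 20.2, 25.1 and 23.2 CPM in the control libraries and 25.6, 20.2 and 24.9 CPM at 16 HPI, and all 18 libraries lay between 20.2 and 25.6 CPM. The groups overlapped at every time. Its log2 fold change against control stayed between -0.05 at 8 HPI and 0.03 at 16 HPI, with edgeR adjusted p of 0.842 and 0.875. The 95% interval at 16 HPI ran from -0.18 to 0.24.

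Smad1 (ENSMUSG00000031681.14, chr8:79338395-79399518, minus strand) encodes a receptor-regulated SMAD of the BMP branch. It had 75.9, 78.1 and 95.1 CPM in the control libraries and 103, 98.2 and 100 CPM at 8 HPI, so that all 8 HPI libraries lay above all controls. The log2 fold change was 0.29 ± 0.06 (SE) with an edgeR adjusted p of 0.00446, which is a 1.22-fold rise, and it was higher in 3 of 3 batches. At 16 HPI it had 93.4, 91.4 and 106 CPM, and a log2 fold change of 0.21 ± 0.06 (edgeR adjusted p = 0.0134), but the libraries overlapped with those of control. That call was lost without control replicate 1, where the log2 fold change was 0.15 (edgeR adjusted p = 0.104), and without 16 HPI replicate 1, where it was 0.17 (edgeR adjusted p = 0.0804). At 24 HPI, Smad1 lay at 79.2, 84.1 and 92.9 CPM, within the range of control, with a log2 fold change of 0.03.

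The rise of Smad1 fell between 3 and 8 HPI. At 3 HPI the libraries had 79.7, 76.8 and 81.2 CPM, all below every library of 8 HPI. From 3 to 8 HPI the log2 fold change was 0.36 ± 0.06 (edgeR adjusted p = 0.000841), and Smad1 was the only one of the 8 genes called in this step, beside 2.3% of all tested genes called and 1.74% called higher. From 16 to 24 HPI it was -0.17 (edgeR adjusted p = 0.0634), lower in 3 of 3 batches and not past the threshold.

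Smad3 (ENSMUSG00000032402.12, chr9:63646767-63757994, minus strand) encodes a receptor-regulated SMAD of the TGF-beta branch. It was low, with 1.37, 1.67 and 2.30 CPM in the control libraries. At 1 HPI it had 0.941, 1.33 and 0.963 CPM, all below the controls, yet the log2 fold change of -0.69 ± 0.24 missed the threshold after adjustment (edgeR adjusted p = 0.221). At 16 HPI the libraries spread from 1.30 to 3.46 CPM and overlapped with control. Across the 6 groups Smad3 passed edgeR's test (adjusted p = 0.021), with the lowest group at 1 HPI and the highest at 16 HPI, although no comparison with control was called.

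Smad7 (ENSMUSG00000025880.11, chr18:75367529-75395935, plus strand) encodes an inhibitory SMAD that blocks the type I receptors. Control libraries had 2.5, 1.09 and 1.05 CPM, and those of 16 HPI had 3.77, 3.24 and 2.87 CPM. The groups did not overlap. The log2 fold change at 16 HPI was 1.07 ± 0.25 (edgeR adjusted p = 0.00309), a 2.11-fold rise, and the differences within batches 1, 2 and 3 were 0.65, 1.41 and 1.30 on the log2 scale. Differences within batches, here and below, are in TMM-scaled log2 CPM with a prior count of 2. They need not match the printed CPM, and the prior shrinks them at low counts.

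Before and after 16 HPI, Smad7 was not called against control. At 8 HPI it had 1.71, 1.27 and 2.51 CPM, with replicate 1 below and replicate 3 above the control of the same number, and a log2 fold change of 0.31 (edgeR adjusted p = 0.573). At 24 HPI it had 1.79, 1.6 and 1.36 CPM and a log2 fold change of 0.03. Both steps around the peak passed the test. From 8 to 16 HPI the log2 fold change was 0.77 ± 0.25 (edgeR adjusted p = 0.0395), but the batches differed, with 1.14 and 1.22 in batches 1 and 2 and 0.12 in batch 3, and the call was lost on leaving out 8 HPI replicate 1 or 2 or 16 HPI replicate 1, 2 or 3, with edgeR adjusted p between 0.0558 and 0.317. Leaving out 8 HPI replicate 1 gave 0.45, and leaving out 8 HPI replicate 3 gave 1.26. From 16 to 24 HPI it was -1.04 ± 0.24 (edgeR adjusted p = 0.00787), and the 3 batches, at -1.08, -0.96 and -0.94, were close together.

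Smad6 (ENSMUSG00000036867.7, chr9:63953076-64022059, minus strand), the other inhibitory SMAD and one of the best known BMP targets, was essentially not detected. Its counts came to 3 over all 18 libraries, with 1 count in 1 library each of control, 8 HPI and 16 HPI and 0 in the other 15 libraries. A count of 0 allows a level of up to 0.316 CPM in the least deep library and 0.130 CPM in the deepest.

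Tgif1 (ENSMUSG00000047407.17, chr17:70844205-70853546, minus strand), the homeodomain corepressor, had the largest change of the 10 genes. Control libraries had 0.245, 0.291 and 1.25 CPM, from 5, 4 and 25 counts, so that the third was well above the other two and the low ones rested on few counts. At 16 HPI the libraries had 4.93, 5.53 and 6.38 CPM, from 76, 94 and 109 counts, all far above every library of the other groups. The log2 fold change was 3.22 ± 0.34 (edgeR adjusted p = 1.23e-06), a 9.29-fold rise. Within batches it was 3.92, 3.74 and 2.19, smallest in batch 3, where the control was highest. The prior count makes the differences of batches 1 and 2 smaller, as their controls held only 5 and 4 counts. Without control replicate 3 the log2 fold change was 4.04, and it was still called.

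Most of the rise of Tgif1 fell between 8 and 16 HPI. At 1 HPI the libraries had 0.209, 0.542 and 1.93 CPM and at 3 HPI 0.375, 0.347 and 1.16 CPM, both overlapping with control, with replicate 3 highest each time. At 8 HPI it had 1.08, 1.16 and 1.62 CPM. The log2 fold change of 1.08 ± 0.45 did not pass (edgeR adjusted p = 0.157), although all 3 batches were higher. Without control replicate 3 it was 1.92 and still not called (edgeR adjusted p = 0.0916). From 8 to 16 HPI it rose by a log2 fold change of 2.14 ± 0.31 (edgeR adjusted p = 9.4e-05), with 2.13, 2.09 and 1.84 within batches.

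Tgif1 then fell. At 24 HPI the libraries had 1.04, 1.69 and 2.45 CPM, all below those of 16 HPI, and the step from 16 to 24 HPI was -1.72 ± 0.27 on the log2 scale (edgeR adjusted p = 0.000346). Against control, 24 HPI was still higher by 1.50 ± 0.40 (edgeR adjusted p = 0.0149), with 1.73, 2.11 and 0.92 within batches, but the CPM ranges overlapped. This call was lost on leaving out any one of 4 libraries: without control replicate 1 or 2 the edgeR adjusted p was 0.0625 or 0.062, and without 24 HPI replicate 2 or 3 it was 0.0503 or 0.0525. Without control replicate 3 the log2 fold change was 2.34 and was called.

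Skil (ENSMUSG00000027660.16, chr3:31095058-31122577, plus strand) encodes SnoN, a corepressor of SMAD complexes. Control libraries had 16.3, 14.8 and 12.9 CPM. Levels at 8 HPI were 24.3, 21.6 and 22.6 CPM and at 16 HPI 29.9, 23.7 and 27.5 CPM, and in both groups every library lay above every control. The log2 fold change was 0.65 ± 0.12 at 8 HPI (edgeR adjusted p = 0.00138) and 0.87 ± 0.11 at 16 HPI (edgeR adjusted p = 1.08e-05), the latter a 1.83-fold rise.

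Skil was already higher than control in 3 of 3 batches at 1 and 3 HPI, by 0.30 and 0.27 on the log2 scale, but these differences missed the threshold (edgeR adjusted p = 0.290 and 0.276). From 16 to 24 HPI it fell by 0.57 ± 0.11 on the log2 scale (edgeR adjusted p = 0.00178). At 24 HPI the libraries had 22.0, 15.7 and 17.0 CPM, which overlapped with control, and the difference of 0.30 had an edgeR adjusted p of 0.0795. Without 24 HPI replicate 2, the lowest of these, the difference was 0.40 and was called (edgeR adjusted p = 0.0353).

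**Figure D2:**
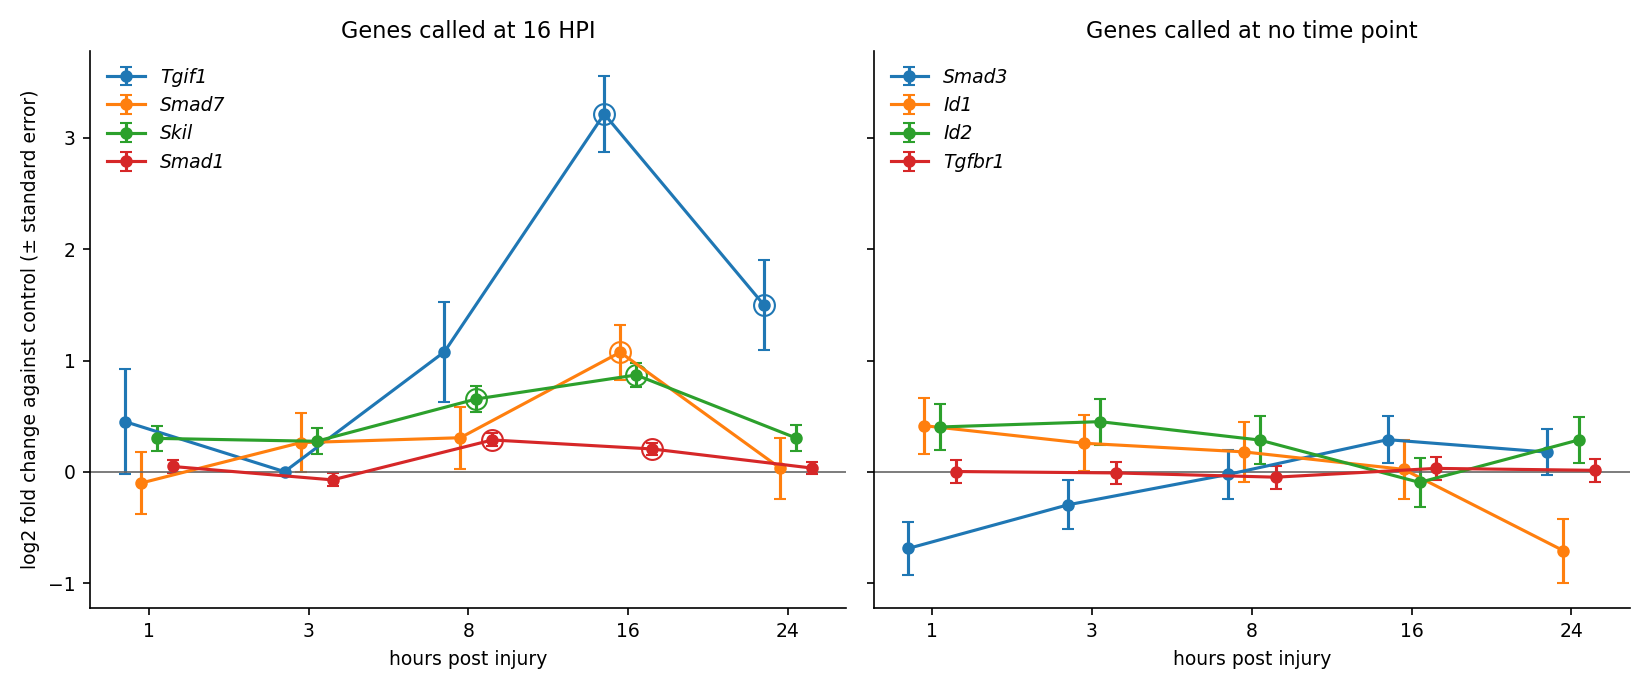
Log2 fold change against control (y axis) at each time post injury (x axis, equal steps) for the 8 tested genes, from the edgeR fit. Bars are standard errors, not drawn for Tgif1 at 3 HPI (0.00 ± 0.84), and rings mark adjusted p under 0.05. Tgif1, Smad7 and Skil peak at 16 HPI, at 3.22, 1.07 and 0.87, Smad1 reaches 0.29 at 8 HPI, and no point of the right panel is ringed.

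In all, 3 of the 8 genes fell in the step from 16 to 24 HPI, Tgif1, Smad7 and Skil, beside 9.82% of all tested genes called and 6.22% called lower. In the step from 8 to 16 HPI, Tgif1 and Smad7 rose, beside 15.2% called and 7.3% called higher. The direction of the change was the same in 3 of 3 batches for each of these calls.

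**Figure D3:**
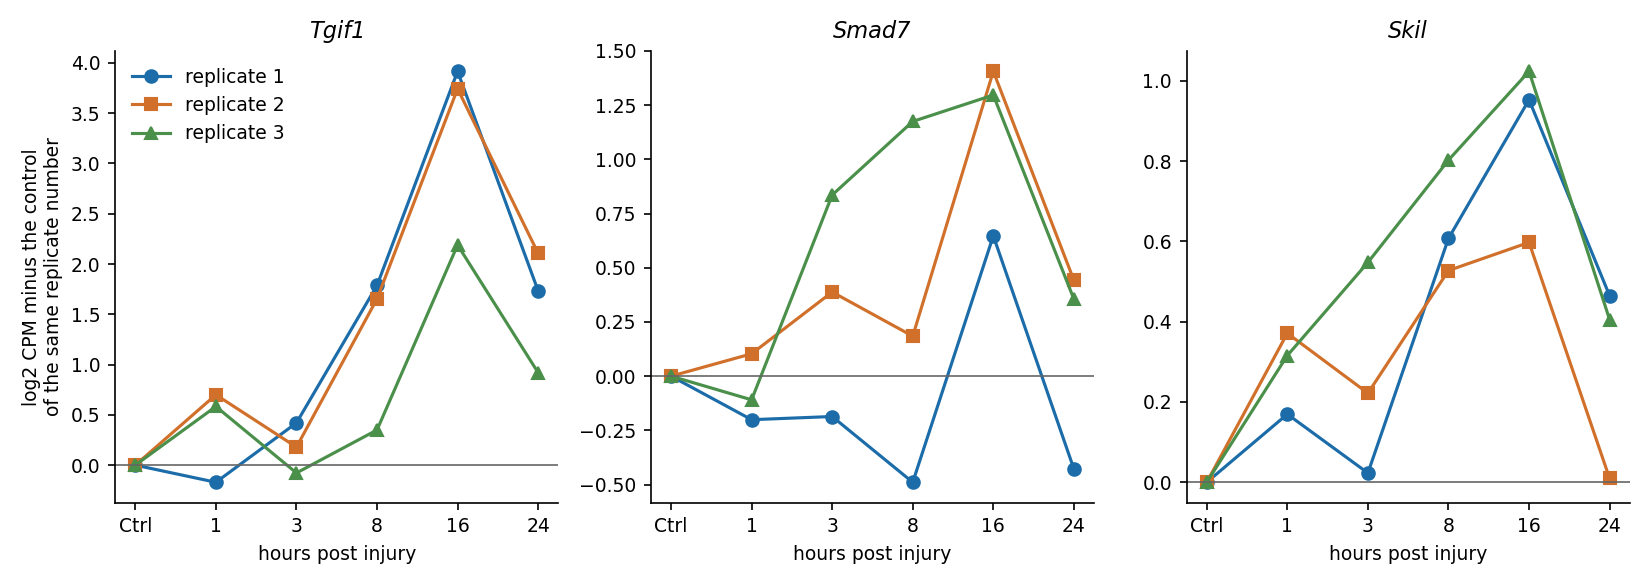
Difference in log2 CPM (y axis, scaled per gene) between each library and the control of the same replicate number, by group (x axis), for the 3 genes with the largest rises at 16 HPI. The log2 CPM is TMM-scaled with a prior count of 2, which shrinks differences at low counts. Each line is one replicate number, and control is 0 by construction. All 9 values at 16 HPI lie above 0, from 0.60 for Skil to 3.92 for Tgif1, and replicate 1 of Smad7 lies below 0 at every time but 16 HPI.

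Of the ID genes, textbook targets of BMP signalling, Id1 and Id2 were not called against control at any time, and Id3 was not tested. Id1 (ENSMUSG00000042745.9, chr2:152736251-152737410, plus strand) had 0.636, 1.02 and 1.90 CPM in the control libraries and 0.455, 1.35 and 1.87 CPM at 16 HPI, where the log2 fold change was 0.02. In every group replicate 3 was the highest. At 24 HPI it had 0.346, 0.775 and 1.03 CPM, below the control in 3 of 3 batches, with a log2 fold change of -0.71 ± 0.29 that did not pass (edgeR adjusted p = 0.101). Its 95% interval ran from -1.30 to -0.11. Over the 6 groups Id1 passed edgeR's test (adjusted p = 0.0385), with the lowest group at 24 HPI and the highest at 1 HPI.

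Id2 (ENSMUSG00000020644.8, chr12:25093799-25097140, minus strand) varied widely between batches. Control libraries had 19.4, 11.1 and 4.40 CPM, those of 16 HPI had 14, 9.77 and 7.73 CPM and those of 24 HPI had 23.8, 10.7 and 8.09 CPM, so that replicate 1 was the highest in each of these groups and the groups overlapped. The log2 fold change was -0.10 at 16 HPI (edgeR adjusted p = 0.809), with a 95% interval from -0.56 to 0.37, and its largest value was 0.45 at 3 HPI (edgeR adjusted p = 0.322). Id3 (ENSMUSG00000007872.3, chr4:136143497-136145755, plus strand) had 0, 2 and 4 counts in the control libraries, 3, 2 and 4 at 16 HPI and 2, 4 and 8 at 24 HPI. It reached at most 8 counts, or 0.385 CPM, in any library, and a change was not detectable at this depth.

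The rest of the pathway was read from 11 lists of ligands, receptors, regulators and common target genes, 105 genes in all with the 10 above, of which 60 were tested. No gene was called at 1 or 3 HPI (11 and 13 at an unadjusted p under 0.05 in edgeR), while 6 of the 60 passed at 8 HPI, which is 10% beside 7.68% of all tested genes, then 23 at 16 HPI and lastly 12 at 24 HPI. At 16 HPI, 14 of the 60 rose and 9 fell, and the median log2 fold change of the 60 was 0.09. Leaving out the 10 genes described above, 52 were tested, and 4 of these, 7.69%, were called at 8 HPI. Of the 52, 10 rose and 9 fell at 16 HPI, while 2 rose and 9 fell at 24 HPI. The last 2 times come to 36.5% and 21.2% of the 52, beside 22.2% and 15% of all tested genes. Over all tested genes, 1477 of the 3055 called at 16 HPI were higher, and 825 of the 2068 called at 24 HPI. Falls thus outnumbered rises at 24 HPI over all tested genes as well. Over all 60 genes, the 24 HPI count was 6 without control replicate 1, 2 or 3 or 24 HPI replicate 2 or 3, and the 8 HPI count was 3 without control replicate 3.

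Few ligand genes were expressed. Of 14 BMP and GDF genes 3 were tested, and 2 fell at 16 HPI, Bmp4 and Gdf11, beside 22.2% of all tested genes called. Bmp4, a BMP ligand, had 0.671 ± 0.394 CPM in control and 0.23 ± 0.203 CPM at 16 HPI (SD, n = 3). The log2 fold change was -1.50 ± 0.43 (edgeR adjusted p = 0.0136), on at most 7 counts a library at 16 HPI. The libraries overlapped, with 0.436 to 1.13 CPM in control and up to 0.455 CPM at 16 HPI. Bmp4 passed the filter of 1 CPM only through libraries of control, 1 and 3 HPI, so the filter itself favoured a fall. Gdf11, a ligand related to myostatin, went from 92.9 ± 19 to 60.2 ± 6.27 CPM, a log2 fold change of -0.64 (edgeR adjusted p = 2.43e-06). Of 9 TGF-beta and activin genes 4 were tested and none was called at 16 HPI. At 24 HPI Tgfb3 rose by 0.88 and Inhbb, an activin subunit, fell by 0.69 on the log2 scale, beside 15% of all tested genes called.

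No tested receptor or co-receptor gene was called over 2-fold at 16 HPI, though some were called with smaller changes. At 16 HPI, 22.2% of all tested genes were called. Of these 3055 genes, 1477 (10.7% of all tested) were higher and the rest lower. Of 4 tested type I receptors, Bmpr1a rose at 16 HPI, by 0.20 on the log2 scale. Of 3 tested type II receptors, 2 fell at 16 HPI, the activin receptor Acvr2a by 0.45 and the BMP receptor Bmpr2 by 0.25. Among 4 tested co-receptors and decoys, the BMP co-receptors Rgma and Rgmb went opposite ways at 16 HPI, with log2 fold changes of 0.73 and -0.36 (edgeR adjusted p = 0.00642 and 0.000154). Of 9 tested extracellular antagonists and latency proteins, Twsg1 rose by 0.20 and Nbl1 fell by 0.60 at 16 HPI.

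Of the 7 tested SMAD genes, 4 rose at 16 HPI and none fell, beside 22.2% of all tested genes called and 10.7% called higher. Beside Smad7 and Smad1, these were the other BMP-branch SMADs Smad5 and Smad9, with log2 fold changes of 0.54 and 0.31 (edgeR adjusted p = 9.05e-05 and 0.00804). Smad9 was below control at 24 HPI, by 0.28 on the log2 scale. Of 5 tested genes listed as nuclear corepressors, 3 rose at 16 HPI, Tgif1, Skil and the zinc finger gene Zeb1, the last by 0.21. The list was drawn up by name, and whether Zeb1 dampens SMAD output was not examined. Of 7 tested cytoplasmic regulators, the ubiquitin ligase gene Smurf1 rose by 0.18 and its relative Nedd4l fell by 0.37 on the log2 scale.

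Of 6 tested ID and E protein genes, 2 fell at 16 HPI, Id4 and the E protein gene Tcf4, and none rose. At that time 22.2% of all tested genes were called. Of these 3055 genes, 1477 (10.7% of all tested) were higher and the rest lower. Id4, an ID gene of neural progenitors, had 83.7 ± 8.61 CPM in control and 63.1 ± 6.24 CPM at 16 HPI (SD, n = 3), a log2 fold change of -0.43 (edgeR adjusted p = 0.000405), and it was back at 91.3 ± 3.85 CPM at 24 HPI. Of 8 tested genes often induced by TGF-beta or BMP, 3 rose at 16 HPI, Junb, Klf10 and Cdkn1a. Junb, an AP-1 gene that many other stimuli also induce, rose from 1.89 ± 0.403 CPM in control to 5.3 ± 1.61 CPM at 16 HPI, a log2 fold change of 1.49 ± 0.21 (edgeR adjusted p = 2.68e-05), and was also called at 8 HPI (0.88) and 24 HPI (1.02). Klf10, a zinc finger gene named for its early response to TGF-beta, rose by 0.57 at 8 HPI and 0.41 at 16 HPI.

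**Figure D4:**
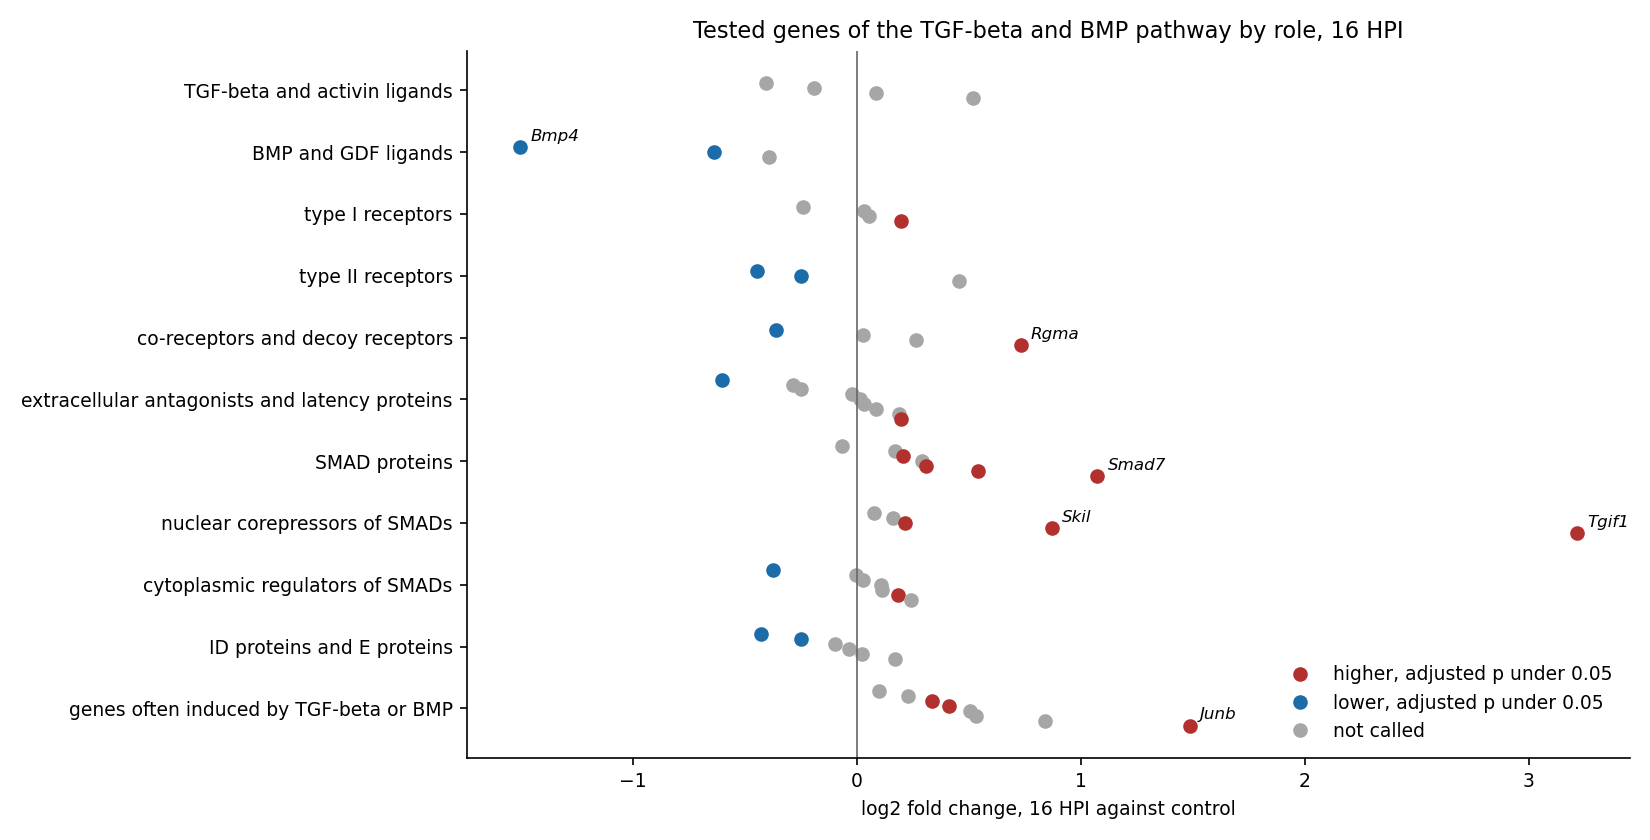
Log2 fold change at 16 HPI against control (x axis) of the 60 tested genes of the 11 lists (y axis), each point a gene. Red and blue mark adjusted p under 0.05 in edgeR, higher and lower. Tgif1 at 3.22, Junb at 1.49 and Smad7 at 1.07 lie furthest to the right and Bmp4 at -1.50 furthest to the left. Bmp4 had at most 7 counts a library at 16 HPI.

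Over the 18 libraries, with the batch removed, the 3 tested genes whose log2 CPM followed Tgif1 most closely were Rnd3 with r = 0.95, Pxn, which encodes the adhesion protein paxillin, with r = 0.95, and Elovl7, a fatty acid elongase, with r = 0.94. Their log2 fold changes at 16 HPI were 1.02, 1.21 and 0.59. Those closest to Smad7 were Gpr19 with r = 0.92, Ap5b1 with r = 0.89 and Bicd2 with r = 0.86, and their log2 fold changes at 16 HPI came to 0.44, 0.34 and 0.27. Among the 8 genes themselves, Tgif1 and Skil were the closest pair with r = 0.73, and Smad3 and Id1 the least alike with r = -0.46. These correlations are a description over the same 18 libraries, which share their time points.

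Markers of the neurons and of other cells changed in part at the same times. Of 6 tested neuron markers, the neuronal tubulin gene Tubb3 was the only one called at 16 HPI, where it fell by 0.40 on the log2 scale (edgeR adjusted p = 1.09e-05), and it stood at -0.37 at 24 HPI, where 4 of the 6 were called, 2 in each direction. Of 4 tested fibroblast markers, only Dcn was called at 16 HPI, at 2.07 on the log2 scale (edgeR adjusted p = 1.77e-05), while the list of 6 summed to between 4.71 and 13.4 CPM against 2.54 to 10.04 CPM in control. Of 2 tested myeloid markers, Cd68 was called, also at 16 HPI, at 0.97 on the log2 scale (edgeR adjusted p = 0.00698), and the list of 6 summed to between 5.65 and 6.18 CPM against 3.56 to 5.83 CPM in control. None of 4 tested satellite glia and Schwann cell markers was called at 16 HPI, where the list of 10 summed to between 2.77 and 8.49 CPM against 2.25 to 9.84 CPM in control. Dcn and Cd68 were still called at 24 HPI, at 2.22 and 0.93. Of 4 tested dividing cell markers, Ccnb1 was called at 8 HPI, at 0.98, and Top2a at 24 HPI, at 1.44 on the log2 scale. The residual ribosomal RNA list summed to between 9945 and 21410 CPM at 16 HPI against 6745 to 9812 CPM in control. The part of these in the changes of Tgif1, Smad7, Skil and Smad1 was not tested, and in a bulk culture fewer cells of a type and less RNA per cell cannot be told apart. With the ribosomal and mitochondrial genes left out before scaling, Tgif1, Smad7, Skil and Smad1 were still called at 16 HPI. This touches the scaling only, and RNA quality was not tested.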

How the data were processed

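RNA was sequenced from 18 eDRG spot libraries, 3 for each of 6 groups, after rRNA depletion and SMARTer cDNA synthesis per the labels. The authors trimmed the reads with cutadapt and aligned them with STAR, and deposited raw counts per gene, without normalization or batch correction. The labels name HTSeq and mm10 and the paper names featureCounts with another GENCODE release. Of 47643 identifiers, 47224 matched GENCODE M21 on GRCm38, which gave symbols, positions and exon lengths. No other counted gene that matched this annotation overlapped any of the 10 genes, and genes that were not counted were not checked. Entries for reads assigned to no gene, 5 per library, held between 25.2% and 33.2% of the counts and were left out.

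The counts were fitted with edgeR 4.0.16 in R 4.3.3 (TMM scaling, quasi-likelihood test, two-sided, terms for group and replicate number, all 18 libraries) and Benjamini-Hochberg adjustment over the 13771 genes above 1 CPM in at least 3 libraries. Alternatives used DESeq2 1.42.0, RUVs factors, other filters and scalings, and libraries left out. The standard error is the log2 fold change divided by the root of the F statistic, and 95% intervals use the t distribution. Correlations and differences within batches used TMM-scaled log2 CPM with a prior count of 2. Same-numbered libraries had a mean correlation of deviations of 0.619 (lowest 0.484 over 45 pairs), so the number was kept as a block. The mean of -0.308 for 90 pairs of different number adds no separate evidence. Deviations from a mean of 3 libraries cancel within a group, which largely fixes that value. The methods were tested on simulated data. Text names all 10 genes, pathway genes called over 2-fold, up to 4 others a list by the 6-group test, and the 3 genes most alike to each of Tgif1 and Smad7. The untested receptor gene Tgfbr2 is named besides. The genes and lists were chosen with earlier results of these data known.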

Additional observations from a re-analysis of the deposited data

Results flagged for a closer look

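Steps between neighbouring times after injury were tested as differences between groups in the same edgeR quasi-likelihood fit, and 6 passed for the tested genes of the 10. Smad1 rose from 3 to 8 HPI by 0.36 ± 0.06 on the log2 scale (edgeR adjusted p = 0.000841, higher in 3 of 3 batches). Tgif1 rose from 8 to 16 HPI by 2.14 ± 0.31 (edgeR adjusted p = 9.4e-05, 3 of 3 batches), and its step from 16 to 24 HPI was -1.72 ± 0.27 (edgeR adjusted p = 0.000346, lower in 3 of 3 batches). Smad7 rose from 8 to 16 HPI by 0.77 ± 0.25 (edgeR adjusted p = 0.0395, 3 of 3 batches, though by 0.12 only in batch 3), a call that 8 of 14 alternatives ended, with values from 0.45 to 1.26, and its step from 16 to 24 HPI was -1.04 ± 0.24 (edgeR adjusted p = 0.00787, lower in 3 of 3 batches). The step of Skil from 16 to 24 HPI was -0.57 ± 0.11 (edgeR adjusted p = 0.00178, lower in 3 of 3 batches). Steps into and out of 16 HPI share its 3 libraries, among them replicate 1 with the most residual ribosomal RNA. Without that library the step of Tgif1 was 1.88 from 8 to 16 HPI and -1.48 from 16 to 24 HPI, both still called.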

How the results depend on the processing

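For 24 fold changes of 7 of the 10 genes, those called or at least 2 standard errors from 0, no alternative reversed the direction, and of 348 alternative values 318 kept their side of the threshold, 26 lost the call and 4 gained it. The other 40 fold changes of the 8 tested genes, none called, were called in 0 of 580 alternative values, and 23 of them, of at most 0.45 in size, had the other sign in at least 1 alternative. Tgif1 (2.96 to 4.04) and Skil (0.80 to 0.96) stayed called at 16 HPI in every alternative that tested them, with adjusted p of at most 0.00801 and 0.00791. Without the replicate block, called genes of the 10 numbered 0 at 8 HPI, 2 at 16 HPI, 0 at 24 HPI, 0 in each step from 3 to 8, 8 to 16 and 16 to 24 HPI, and 2 among the 6 groups, and pathway genes numbered 1 at 8 HPI, 6 at 16 HPI and 0 at 24 HPI. Smad7 at 16 HPI was then at 1.04 (edgeR adjusted p = 0.128), the only alternative that ended its call among those that tested it. The filter of over 1 CPM in all 18 libraries removes Tgif1, Smad7, Smad3 and Id1 from the test, which left 2 called at 16 HPI, 0 at 24 HPI, 0 from 8 to 16 HPI, 1 from 16 to 24 HPI and 2 among the 6 groups. With 1 RUVs factor in place of the block, 1 gene was called from 8 to 16 HPI, and pathway genes numbered 3, 15 and 4 at 8, 16 and 24 HPI. With the 2 compared groups alone, 2 genes were called at 24 HPI and 2 from 3 to 8 HPI, and pathway genes numbered 4 at 1 HPI and 3 at 8 HPI. Upper-quartile factors gave 2 at 24 HPI, and the DESeq2 Wald test gave 1 from 8 to 16 HPI. Smad1 at 16 HPI lost its call with the RUVs factor and with the 2 groups alone. The cause was not tested.

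Leaving out each library in turn gave 2 called genes at 8 HPI, 3 to 4 at 16 HPI, 0 to 1 at 24 HPI, 1 from 3 to 8 HPI, 1 to 2 from 8 to 16 HPI, 3 from 16 to 24 HPI and 5 to 6 among the 6 groups. Pathway genes numbered 0 at 1 HPI, 0 to 1 at 3 HPI, 3 to 4 at 8 HPI, 17 to 24 at 16 HPI and 6 to 9 at 24 HPI. Depth limited Smad6 and Id3, which lay at or near 3 counts, and the low counts of Tgif1 in control, where 2 libraries held 4 and 5.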
